A study of Homo sapiens with 17 samples.

Results

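The EGF receptor family and its ligands were followed through 8 genes chosen by symbol, in a rule that uses no measured value but was written with earlier results of these data known: the ligands TGFA, AREG, EREG and HBEGF, the receptors EGFR, ERBB2 and ERBB3, and the feedback inhibitor ERRFI1. All 8 had a row among the 27315 genes of the deposited table, and 7 were among the 12484 genes expressed well enough to be tested, the exception being ERBB3. The values came from polyadenylated RNA of 786-O, an established human cell line from a clear cell renal carcinoma. These cells have no functional VHL, the protein through which HIF alpha subunits are ubiquitinated and degraded, so HIF2a is constantly present. In the HIF2a experiment the groups were HIF2a_sg4 and HIF2a_sg6, which carry guide RNAs against EPAS1, the gene of HIF2a, and the scrambled-guide control HIF2a_sgscr, with 3 libraries each. In the USP37 experiment the groups were USP37_sg3 and USP37_sg9, which carry guides against the deubiquitinase USP37, with 3 libraries each, and a separate scrambled-guide control, USP37_sgscr, with 2 libraries numbered 2 and 3. Every group, controls included, was made by lentiviral delivery of Cas9 and a guide in the pLenti CRISPR-V2 puro vector followed by antibiotic selection, so all are selected populations of infected cells of 1 line, and none had functional VHL. The labels do not say whether replicates were separate infections or cultures, and the p-values therefore reflect spread among these libraries, which may be technical.

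The ligands are made as membrane-bound precursors, released by metalloproteases, and bind the extracellular part of EGFR, which then pairs with another EGFR or with a related ERBB receptor and signals through its kinase to the RAS-ERK relay and the PI3K pathway. TGFA, AREG, EREG and HBEGF all bind EGFR, and EREG and HBEGF also bind ERBB4. ERBB2 has no ligand of its own and acts as a partner, ERBB3 binds neuregulins and has little kinase activity, and ERRFI1 (also called MIG6) binds the EGFR kinase and blocks it. In VHL-deficient renal carcinoma TGFA is a known HIF2a-dependent growth factor, and EGFR is its receptor in an autocrine loop.

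The deposited values are variance-stabilised and batch-corrected, on a log2-like scale that flattens towards a floor of 5.14, so differences of weakly expressed genes are understated, and they are not divided by gene length, so levels are compared between groups and not between genes. Depth per library is unknown. The targeted genes followed their labels: EPAS1 averaged 9.54 ± 0.14 in HIF2a_sg4 and 10.34 ± 0.20 in HIF2a_sg6 libraries, against 11.91 ± 0.13 in HIF2a_sgscr (log2, SD, n = 3 each). USP37 averaged 8.33 ± 0.10 in USP37_sg3 and 8.13 ± 0.14 in USP37_sg9 (n = 3 each), against 9.24 ± 0.13 in USP37_sgscr (n = 2). EPAS1 was also lower with the USP37 guides, by a log2 change of -0.72, and USP37 with the HIF2a guides, by -0.44 (limma, adjusted p = 0.00903). The 6 markers fixed for 786-O had group means of 11.3 to 16.6. Of these 6, 2 rose and 1 fell with HIF2a guides, with CDH6 at 1.31, where 16.1% of all tested genes rose and 14.5% fell. With USP37 guides 5 rose, where 22.4% of all tested genes rose. Between the controls 3 of the 6 were lower in USP37_sgscr than in HIF2a_sgscr, as were 20.4% of all tested genes. As for other cells, 0 of 5 leukocyte and 0 of 3 endothelial markers passed the filter. Summed above the floor, these lists ran from 0.70 to 1.72 (leukocyte) and from 1.16 to 1.92 (endothelial) in libraries with HIF2a guides, against -0.0056 to 1.503 and 0.43 to 0.66 in HIF2a_sgscr. In USP37 guide libraries these sums ran from 0.11 to 0.82 and from -0.07 to 0.55, against 0.67 to 3.29 and 0.39 to 0.55 in USP37_sgscr. Of the 5 markers of 293T, the packaging line, LIN28A, LIN28B and NEFM were not tested, NEFL and SOX2 were, and the summed level was 8.42 to 9.47 with HIF2a guides, against 8.48 to 9.17 in HIF2a_sgscr, and 6.83 to 7.85 with USP37 guides, against 7.90 to 8.25 in USP37_sgscr. Of the tested pair, NEFL fell with HIF2a guides (-0.70) and with USP37 guides (-0.68), while SOX2 changed by 0.28 and -0.18 without passing, though it rose with HIF2a_sg6 alone (0.45, adjusted p = 0.0298). The part of these markers in the results was not tested. HIF2a_sg6 replicates 2 and 3 and HIF2a_sgscr replicate 2 lay farther from their group means than the other 14 libraries, with SDs across genes of 0.150 to 0.191, against 0.0907 to 0.143. Fits without these 3 leave HIF2a_sg6 with replicate 1 alone, so what they show for HIF2a guides rests on 1 library of that group.

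The promoters of TGFA, ERRFI1, EREG and AREG are shown because TGFA and ERRFI1 were lower with every guide while EREG and AREG, which lie close together on chromosome 4, moved the other way where they moved. The windows run from 250 bases before to 50 after a RefSeq transcription start (GRCh38.p14), 5′ to 3′ on the gene's strand. They were searched on both strands for the HIF core motifs ACGTG and GCGTG, which share their last 4 letters and so cannot both match at a single place, and for the AP-1 motif TGANTCA. Capitals mark any match, including matches on the opposite strand.
TGFA first start, chr2:70553777-70554076, minus strand: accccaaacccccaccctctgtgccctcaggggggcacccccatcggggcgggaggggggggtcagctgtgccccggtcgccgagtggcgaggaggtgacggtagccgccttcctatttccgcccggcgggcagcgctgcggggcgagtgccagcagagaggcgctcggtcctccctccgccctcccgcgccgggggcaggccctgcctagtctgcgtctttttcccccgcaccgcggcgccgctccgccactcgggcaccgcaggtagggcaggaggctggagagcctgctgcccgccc
TGFA second start, chr2:70553397-70553696, minus strand: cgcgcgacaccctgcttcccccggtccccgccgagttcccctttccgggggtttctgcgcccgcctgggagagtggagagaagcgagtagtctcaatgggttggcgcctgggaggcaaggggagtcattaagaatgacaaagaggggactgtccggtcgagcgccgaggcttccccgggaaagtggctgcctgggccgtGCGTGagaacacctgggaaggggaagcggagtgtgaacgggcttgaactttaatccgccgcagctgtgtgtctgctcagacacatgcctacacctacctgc
ERRFI1, chr1:8026260-8026559, minus strand: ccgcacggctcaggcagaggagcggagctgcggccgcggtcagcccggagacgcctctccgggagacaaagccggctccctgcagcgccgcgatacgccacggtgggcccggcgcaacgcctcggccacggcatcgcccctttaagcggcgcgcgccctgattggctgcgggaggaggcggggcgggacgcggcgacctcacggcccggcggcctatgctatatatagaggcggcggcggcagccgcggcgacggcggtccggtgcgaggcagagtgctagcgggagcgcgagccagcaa
EREG, chr4:74364895-74365194, plus strand: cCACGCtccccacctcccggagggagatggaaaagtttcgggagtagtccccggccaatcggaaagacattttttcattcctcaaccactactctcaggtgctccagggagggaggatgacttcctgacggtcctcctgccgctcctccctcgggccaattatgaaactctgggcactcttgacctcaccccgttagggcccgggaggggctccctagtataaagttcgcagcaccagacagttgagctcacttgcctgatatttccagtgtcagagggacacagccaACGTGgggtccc
AREG, chr4:74444886-74445185, plus strand: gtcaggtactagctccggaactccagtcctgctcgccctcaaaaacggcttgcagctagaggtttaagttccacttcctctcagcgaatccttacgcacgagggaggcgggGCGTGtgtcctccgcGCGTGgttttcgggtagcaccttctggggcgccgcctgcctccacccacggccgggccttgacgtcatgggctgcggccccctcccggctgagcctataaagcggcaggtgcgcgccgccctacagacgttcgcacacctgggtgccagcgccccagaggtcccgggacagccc

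Neither the first TGFA window nor the ERRFI1 window held any of the 3 motifs. The second TGFA window held GCGTG at -51, counted from the transcription start. The AREG window held GCGTG at -139 and -124, and the EREG window held ACGTG at +39 and GCGTG on the opposite strand at -249. Among the windows not printed, that of HBEGF held GCGTG on the opposite strand at +26, the second EGFR window held TGANTCA at -232 and -136, and that of ERBB2 held it at -222. No window was available for ERBB3, which was not searched. Such matches are common: of 35116 RefSeq promoter windows of this length, 21.4% held ACGTG, 36.5% held GCGTG, 48.4% held either and 7.71% held TGANTCA. A match describes letters only, and a window without one says nothing of HIF or AP-1 at that gene.

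TGFA, the EGFR ligand known as a HIF2a target in renal carcinoma, was the member that fell most with HIF2a guides. Its values were 10.13, 9.80 and 9.90 in HIF2a_sg4 and 10.43, 10.07 and 10.13 in HIF2a_sg6, against 12.60, 12.55 and 12.34 in HIF2a_sgscr. All 6 guide libraries lay below all 3 controls, with the nearest values 10.43 and 12.34. Averaged over both guides the log2 change was -2.42 ± 0.09 (SE, adjusted p = 3.04e-14), from limma with Benjamini-Hochberg adjustment over all tested genes, as for every adjusted p given here. With USP37 guides TGFA was 12.08, 11.87 and 11.78 in USP37_sg3 and 12.06, 11.92 and 12.05 in USP37_sg9, against 12.55 and 12.56 in USP37_sgscr. Again no guide library reached the control range, and the log2 change was -0.60 ± 0.11 (SE, adjusted p = 0.000192). The change was smaller with USP37 guides than with HIF2a guides by a tested difference of 1.83 ± 0.14 (SE, adjusted p = 4.35e-09), and the controls, at 12.56 in USP37_sgscr and 12.50 in HIF2a_sgscr, were not told apart (adjusted p = 0.735). The table also holds TGFA-IT1, which overlaps TGFA. In these bulk samples fewer cells expressing a gene and less of its RNA per cell cannot be told apart.

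EREG (epiregulin), a ligand of EGFR and ERBB4, moved opposite to TGFA. Its values were 13.10, 13.31 and 13.37 in HIF2a_sg4 and 12.79, 12.62 and 12.73 in HIF2a_sg6, against 12.39, 12.52 and 12.52 in HIF2a_sgscr. All 6 guide libraries were above the controls, and the averaged log2 change was 0.51 ± 0.09 (SE, adjusted p = 0.000288). Taken alone, HIF2a_sg4 gave 0.78 (adjusted p = 1.26e-05) and HIF2a_sg6 0.23 (adjusted p = 0.117). With USP37 guides, EREG values were 13.27, 13.60 and 13.38 in USP37_sg3 and 12.82, 13.22 and 13.23 in USP37_sg9, against 11.98 and 12.03 in USP37_sgscr. All 6 guide libraries were again above the controls, the lowest at 12.82, and the log2 change was 1.25 ± 0.11 (SE, adjusted p = 2.55e-08). It was larger than with HIF2a guides by 0.74 ± 0.14 (SE, adjusted p = 0.000397). The 2 controls themselves differed, by a log2 change of -0.48 in USP37_sgscr relative to HIF2a_sgscr (adjusted p = 0.00393). Against the pooled controls of both experiments the EREG change was 0.96 with USP37 guides and 0.70 with HIF2a guides.

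AREG (amphiregulin), a heparin-binding ligand and the chromosome 4 neighbour of EREG, lay near the floor of the scale and rose by amounts that differed between guides. Its values were 8.14, 8.17 and 8.15 in HIF2a_sg4 and 7.23, 7.54 and 7.07 in HIF2a_sg6, against 6.83, 6.86 and 7.10 in HIF2a_sgscr. The HIF2a_sg4 libraries stood apart from the controls and the HIF2a_sg6 libraries overlapped them. The averaged log2 change was 0.78 ± 0.15 (SE, adjusted p = 0.000329), made up of 1.22 with HIF2a_sg4 (adjusted p = 1.28e-05) and 0.35 with HIF2a_sg6 (adjusted p = 0.137), and it was 1.19 against the pooled controls of both experiments. USP37 guide libraries had AREG at 5.86, 6.08 and 6.28 in USP37_sg3 and 6.54, 7.19 and 6.73 in USP37_sg9, against 5.67 and 6.18 in USP37_sgscr. Here USP37_sg9 was above the controls and USP37_sg3 overlapped them. The averaged log2 change was 0.52 ± 0.17 (SE, adjusted p = 0.0175), but 0.27 (adjusted p = 0.364) without USP37_sgscr replicate 2 and -0.08 (adjusted p = 0.763) when the controls of both experiments were pooled. USP37_sgscr was lower than HIF2a_sgscr by a log2 change of -1.01 (adjusted p = 0.000317), so that both USP37 guide means, 6.07 and 6.82, lay below the HIF2a_sgscr mean of 6.93. In hg19, the build named by the submitters, AREG has a near-identical copy (AREGB, now a synonym of AREG in RefSeq), and how its reads were assigned is not given in the sources used here, so its level is uncertain.

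HBEGF, a ligand released by metalloprotease shedding, lay near the floor of the scale, as AREG did, and rose with both USP37 guides. It was 7.41, 7.81 and 7.72 in USP37_sg3 and 7.53, 7.50 and 7.71 in USP37_sg9, against 6.82 and 6.54 in USP37_sgscr. The ranges were separate and the log2 change was 0.93 ± 0.13 (SE, adjusted p = 8.68e-06). In the HIF2a experiment HBEGF was 7.27, 7.24 and 7.14 in HIF2a_sg4 and 6.72, 6.64 and 6.65 in HIF2a_sg6, against 6.60, 6.62 and 6.88 in HIF2a_sgscr. HIF2a_sg4 was above the controls, with a log2 change of 0.52 (adjusted p = 0.00441), and HIF2a_sg6 lay within them, with -0.03 (adjusted p = 0.890). Averaged over both guides the change was 0.25 ± 0.11 (SE, adjusted p = 0.102; 0.0465 against the pooled controls), less than in the USP37 experiment by a tested 0.69 ± 0.17 (SE, adjusted p = 0.00318). The controls, at 6.68 in USP37_sgscr and 6.70 in HIF2a_sgscr, were not told apart (adjusted p = 0.930).

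**Figure D1:**
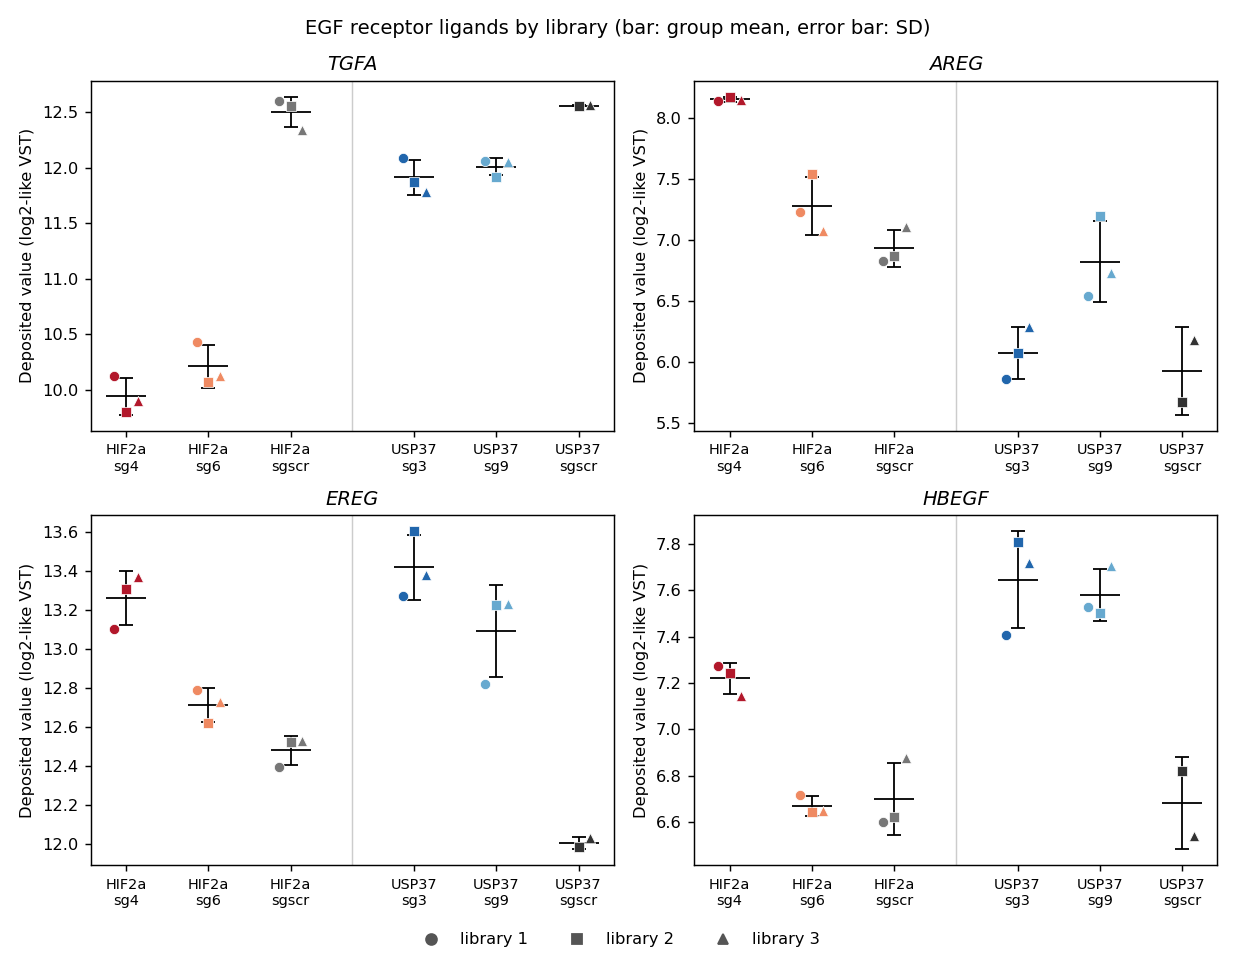
Deposited log2 values of the 4 ligands by group, 1 panel per gene, each point a library and each bar the group mean with its SD (n = 3, 2 in USP37_sgscr). TGFA guide libraries sit below their controls in both experiments and EREG guide libraries above them, while AREG differs between guides.

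EGFR, the receptor shared by the 4 ligands, did not pass the test with HIF2a guides. It was 11.19, 11.09 and 11.32 in HIF2a_sg4 and 11.45, 10.51 and 11.71 in HIF2a_sg6, against 11.31, 11.54 and 11.08 in HIF2a_sgscr. The groups overlapped, the HIF2a_sg6 values had the widest spread of any group for this gene (SD 0.63), and the averaged log2 change was -0.10 ± 0.18 (SE, adjusted p = 0.723). With the 3 far libraries left out it was 0.13, with 1 library left in HIF2a_sg6. EGFR values with USP37 guides were 11.81, 11.95 and 11.71 in USP37_sg3 and 11.00, 11.34 and 10.72 in USP37_sg9, against 11.67 and 11.57 in USP37_sgscr. USP37_sg3 lay just above both controls and USP37_sg9 below them, and the averaged log2 change was -0.20 ± 0.20 (SE, adjusted p = 0.448). USP37_sg9 alone gave -0.60 (adjusted p = 0.0354), which missed the threshold in 6 of 26 alternative settings. These were no filter on low values (adjusted p = 0.0715), no mean-variance trend (adjusted p = 0.0504), and leaving out USP37_sg9 replicate 1 (adjusted p = 0.0693) or 3 (adjusted p = 0.146), or USP37_sgscr replicate 2 (adjusted p = 0.158) or 3 (adjusted p = 0.0923). The direct difference of USP37_sg9 from USP37_sg3 was -0.80 (adjusted p = 0.00594).

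ERBB2, the partner receptor without a ligand, did not pass in either averaged comparison. It was 10.74, 10.91 and 11.04 in HIF2a_sg4 and 11.18, 11.14 and 11.25 in HIF2a_sg6, against 10.68, 11.03 and 10.80 in HIF2a_sgscr. HIF2a_sg6 lay above the controls and HIF2a_sg4 overlapped them, and the averaged log2 change was 0.20 ± 0.09 (SE, adjusted p = 0.0994). It passed the test without HIF2a_sgscr replicate 2 (0.30, adjusted p = 0.0271), and was 0.29 without the 3 far libraries, with 1 library left in HIF2a_sg6. HIF2a_sg6 alone gave 0.35 (adjusted p = 0.0157), which was lost without HIF2a_sgscr replicate 1 (adjusted p = 0.0986) or 3 (adjusted p = 0.0507). USP37 guides gave ERBB2 values of 10.79, 10.47 and 10.59 in USP37_sg3 and 10.32, 10.26 and 10.09 in USP37_sg9, against 10.65 and 10.69 in USP37_sgscr. USP37_sg9 lay below the controls, with a log2 change of -0.45 (adjusted p = 0.00401), and USP37_sg3 lay around them, with -0.05 (adjusted p = 0.767). The averaged change was -0.25 ± 0.11 (SE, adjusted p = 0.0617), past the threshold in 8 of 27 alternative settings, and its difference from the HIF2a change was -0.45 ± 0.14 (SE, adjusted p = 0.0144), no longer past the threshold without HIF2a_sgscr replicate 1 (-0.37, adjusted p = 0.0525) or USP37_sgscr replicate 3 (-0.43, adjusted p = 0.0666). The table also holds MIEN1 and MIR4728, which overlap ERBB2, and EGFR-AS1, which overlaps EGFR, and the library kit does not mark strand, so reads shared with these rows cannot be assigned.

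ERBB3, the neuregulin receptor, lay near the floor, between 5.27 and 6.66, and was not tested. It was 6.16, 5.98 and 5.51 in HIF2a_sg4 and 5.45, 6.05 and 5.71 in HIF2a_sg6, against 5.27, 5.45 and 5.36 in HIF2a_sgscr. Its values were 6.51, 5.66 and 6.66 in USP37_sg3 and 5.65, 5.87 and 5.70 in USP37_sg9, against 5.84 and 5.90 in USP37_sgscr. With no filter on low values the log2 changes were 0.45 (adjusted p = 0.0974) with HIF2a guides and 0.14 (adjusted p = 0.697) with USP37 guides.

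ERRFI1, the inhibitor that binds the EGFR kinase and is itself induced by growth factor signalling, fell with every guide. It was 11.13, 10.80 and 10.73 in HIF2a_sg4 and 10.71, 10.26 and 10.41 in HIF2a_sg6, against 12.67, 12.27 and 12.35 in HIF2a_sgscr. The highest guide library was 11.13 and the lowest control 12.27, and the log2 change was -1.76 ± 0.11 (SE, adjusted p = 1.02e-10). With USP37 guides it was 12.22, 11.86 and 11.92 in USP37_sg3 and 12.14, 11.94 and 11.84 in USP37_sg9, against 13.51 and 13.38 in USP37_sgscr. The ranges were again separate, and the log2 change was -1.46 ± 0.13 (SE, adjusted p = 4.41e-08). The difference between the 2 changes was 0.30 ± 0.17 (SE, adjusted p = 0.185). USP37_sgscr was higher than HIF2a_sgscr by 1.01 (adjusted p = 2.12e-05). Against the pooled controls the change was -2.16 with HIF2a guides and -0.85 with USP37 guides (adjusted p = 0.00144). How far the 2 changes differ therefore depends on the control used. The highest USP37 guide library, 12.22, was also below the lowest HIF2a_sgscr library.

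**Figure D2:**
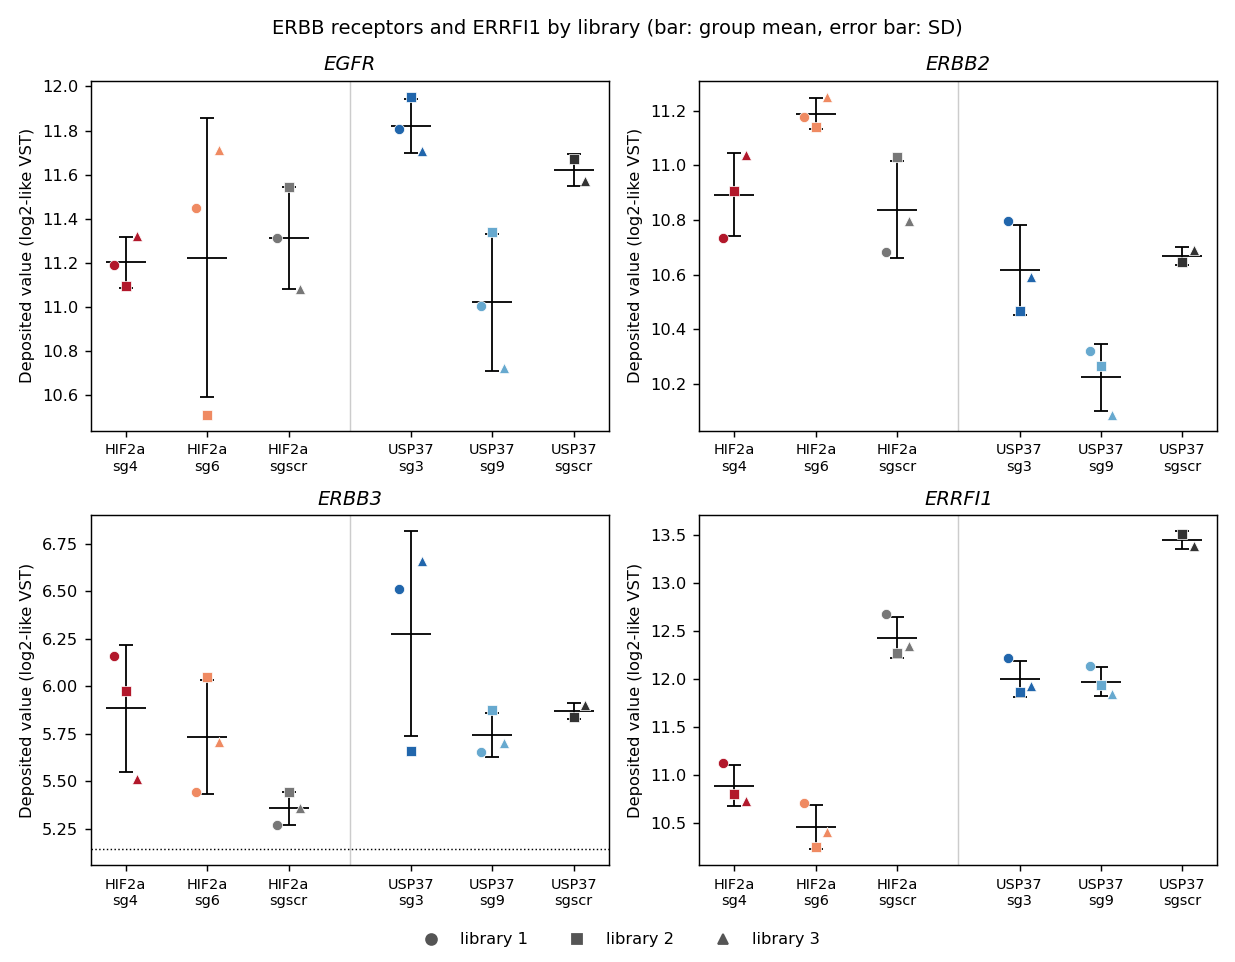
Deposited log2 values of the 3 receptors and of ERRFI1 by group, each point a library and each bar the group mean with its SD (n = 3, 2 in USP37_sgscr). ERRFI1 guide libraries sit below both controls, ERBB3 stays near the floor, and EGFR and ERBB2 overlap between most groups.

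By group mean, from low to high, TGFA was 9.94 ± 0.17 in HIF2a_sg4, 10.21 ± 0.20 in HIF2a_sg6, 11.91 ± 0.16 in USP37_sg3, 12.01 ± 0.08 in USP37_sg9, 12.50 ± 0.14 in HIF2a_sgscr and 12.56 ± 0.0055 in USP37_sgscr (log2, SD). In that order the 2 HIF2a guides, the 2 USP37 guides and the 2 controls formed 3 neighbouring pairs whose libraries overlapped, and the steps between the pairs did not overlap. ERRFI1 was 10.46 ± 0.23 in HIF2a_sg6, 10.89 ± 0.21 in HIF2a_sg4, 11.97 ± 0.15 in USP37_sg9, 12.00 ± 0.19 in USP37_sg3, 12.43 ± 0.21 in HIF2a_sgscr and 13.44 ± 0.09 in USP37_sgscr. Among its neighbours in that order the libraries of the 2 USP37 guides overlapped and the other steps were separate. From high to low, EREG was 13.42 ± 0.17 in USP37_sg3, 13.26 ± 0.14 in HIF2a_sg4, 13.09 ± 0.24 in USP37_sg9, 12.71 ± 0.09 in HIF2a_sg6, 12.48 ± 0.07 in HIF2a_sgscr and 12.00 ± 0.03 in USP37_sgscr. Its 3 highest groups overlapped with their neighbours and the lower steps were separate. AREG was 8.15 ± 0.02 in HIF2a_sg4 and 7.28 ± 0.24 in HIF2a_sg6, and next came HIF2a_sgscr (6.93 ± 0.15), USP37_sg9 (6.82 ± 0.33), USP37_sg3 (6.07 ± 0.21) and USP37_sgscr (5.93 ± 0.36). The steps below HIF2a_sg4 and below USP37_sg9 were separate, and the others overlapped. These orders cross experiments, whose controls differed for AREG, EREG and ERRFI1.

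Counted together, 4 of the 7 tested members passed with HIF2a guides: AREG and EREG rose and TGFA and ERRFI1 fell. The background was large, since 30.6% of all tested genes passed in this comparison, 16.1% higher and 14.5% lower. The guide libraries of both guides all lay above the controls for EREG, as for 13.1% of tested genes, and all below them for TGFA and ERRFI1, as for 12.1%. With USP37 guides 5 of 7 passed, AREG, EREG and HBEGF higher and TGFA and ERRFI1 lower, beside 44.3% of all tested genes, 22.4% higher and 21.9% lower. All guide libraries lay above the controls for EREG and HBEGF, as for 20.0% of tested genes, and below them for TGFA and ERRFI1, as for 21.2%. The median log2 change of the members was 0.20 with HIF2a guides and -0.20 with USP37 guides, beside -0.0045 and 0.0060 over all tested genes. Between the changes of the 2 experiments 4 of 7 members differed, beside 38.6% of tested genes, 3 with a positive difference (19.6% of tested genes) and 1 with a negative one (19.0%). Between the 2 controls 3 of 7 differed, beside 40.5% of tested genes, ERRFI1 higher (20.1%) and AREG and EREG lower (20.4%) in USP37_sgscr. TGFA and ERRFI1 passed as lower with each of the 4 guides against its own control, as did 2.10% of all tested genes (262), and no member passed as higher with all 4, against 1.15% (143).

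The 2 guides to a gene did not give the same picture for the ligands. With HIF2a_sg4 5 of 7 members passed, beside 25.3% of tested genes, with 3 higher (13.2%) and 2 lower (12.1%). With HIF2a_sg6 3 of 7 passed, beside 29.0%, with ERBB2 higher (15.2%) and TGFA and ERRFI1 lower (13.8%). Directly between the guides, HIF2a_sg6 was lower than HIF2a_sg4 for AREG by a log2 difference of -0.87 (adjusted p = 0.00255), for EREG by -0.55 (adjusted p = 0.00298) and for HBEGF by -0.55 (adjusted p = 0.0089). ERRFI1 differed by -0.43 (adjusted p = 0.0437), a difference that was lost in 16 of 26 alternative settings. These 4 of 7 members, all lower, stand beside 9.22% of all tested genes, of which 4.86% were higher and 4.36% lower in HIF2a_sg6. TGFA differed by 0.27 (adjusted p = 0.133), and EPAS1 itself averaged 9.54 in HIF2a_sg4 and 10.34 in HIF2a_sg6. The 3 far libraries include 2 of HIF2a_sg6, which is left with replicate 1 alone without them. The differences between the guides were then -0.47 for EREG, -0.50 for HBEGF, -0.18 for ERRFI1 and 0.49 for TGFA, and rest on that 1 library. HBEGF missed the threshold with array weights (adjusted p = 0.0617), and AREG passed in every alternative that tested it.

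With USP37_sg3 4 of 7 members passed, beside 35.2% of tested genes, with EREG and HBEGF higher (16.8%) and TGFA and ERRFI1 lower (18.4%). With USP37_sg9 all 7 tested members passed, beside 47.8%, with 3 higher (24.6%) and 4 lower (23.2%). Directly between the guides, USP37_sg9 was higher than USP37_sg3 for AREG by 0.75 (adjusted p = 0.00285) and lower for EGFR by -0.80 (adjusted p = 0.00594), for ERBB2 by -0.39 (adjusted p = 0.00822) and for EREG by -0.33 (adjusted p = 0.028). These 4 of 7 stand beside 30.8% of tested genes, 16.6% higher and 14.2% lower. The ERBB2 difference was lost without USP37_sg3 replicate 1 (-0.31, adjusted p = 0.0558). The EREG difference was lost without USP37_sg3 replicate 2 (-0.23, adjusted p = 0.161) or USP37_sg9 replicate 1 (-0.19, adjusted p = 0.181), and with no filter on low values (adjusted p = 0.0513). TGFA, HBEGF and ERRFI1 differed by 0.10, -0.07 and -0.03 between these guides, with adjusted p of 0.530, 0.732 and 0.897.

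**Figure D3:**
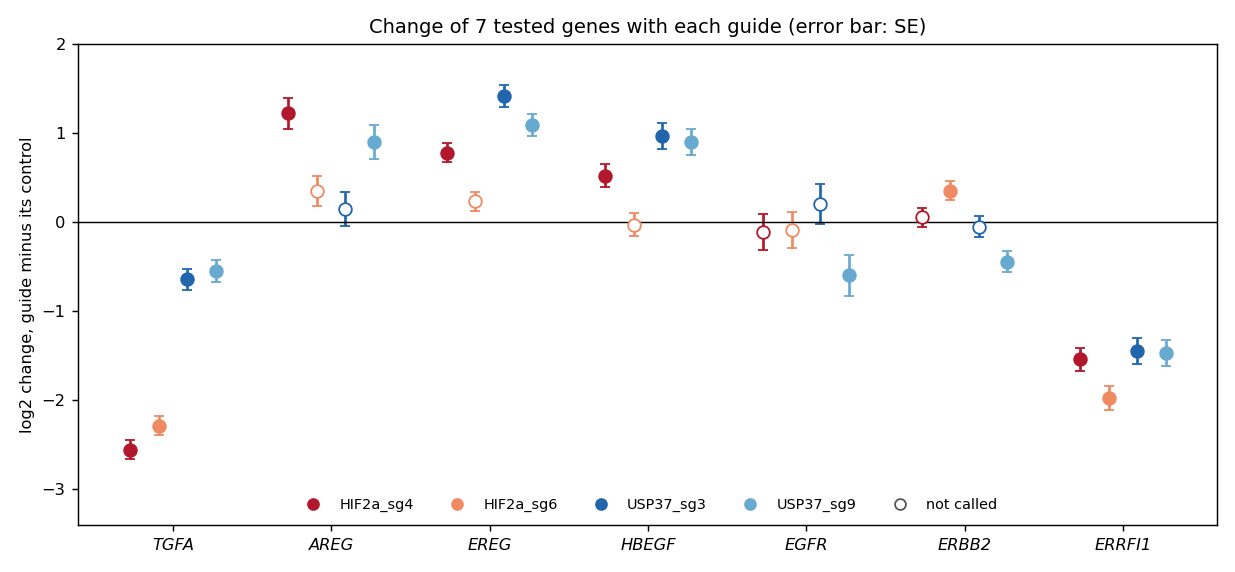
Log2 change of each tested member with each guide against its own scrambled-guide control, points with SE and open where the test was not passed. TGFA and ERRFI1 lie below 0 with all 4 guides, EREG above 0, and AREG and EGFR spread across guides.

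Among the other ligands and ERBB4, 4 of 8 genes were tested. ERBB4, the remaining receptor of the family, was at 5.14 in every library, and EPGN, NRG3 and NRG4 were also too low to test. BTC (betacellulin), a ligand of EGFR and ERBB4 that lies beyond AREG on chromosome 4, averaged 7.95 in HIF2a_sg4 and 7.71 in HIF2a_sg6, against 6.88 in HIF2a_sgscr, a log2 change of 0.95 that passed. In USP37 libraries it averaged 6.93 and 6.77, against 7.30 in USP37_sgscr, and fell by 0.45 (adjusted p = 0.0197). Taken alone, USP37_sg9 passed (-0.53, adjusted p = 0.0131) and USP37_sg3 did not. The lower of the 2 control libraries, 7.09, lay within the USP37_sg9 range. The tested difference of BTC between experiments was -1.40. The neuregulin NRG2, near the floor at 6.35 in HIF2a_sgscr, rose by 1.08 with HIF2a guides. NRG1 changed by -0.27 (adjusted p = 0.0236) with HIF2a guides and by 0.70 with USP37 guides. NRG1 also differed between controls, by -0.46 in USP37_sgscr relative to HIF2a_sgscr. In all, 2 of the 4 rose and 1 fell with HIF2a guides (median 0.50), and 1 rose and 1 fell with USP37 guides (median -0.0083). The shares over all tested genes were 30.6% and 44.3%. Without the 3 far libraries none of the 4 fell with HIF2a guides.

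For genes that release ligands, restrain receptors or relay their signal, the counts stand beside the 30.6% (HIF2a guides) and 44.3% (USP37 guides) of all tested genes that passed. Of 7 shedding genes, 0 rose and 2 fell with HIF2a guides, the metalloprotease ADAM9 (-0.56) and RHBDF2 (-0.41), a regulator of the protease ADAM17. With USP37 guides ADAM12 rose by 0.83 and ADAM9 fell by 0.37. Of 12 tested genes of receptor restraint and turnover, HIF2a guides raised the phosphatase PTPRJ (1.05) and LRIG1 (0.65), which promotes loss of ERBB receptors, and lowered the ubiquitin ligase RNF41 (-0.37). USP37 guides raised 3 and lowered 1 of these 12, with RNF41 higher (0.44) and the deubiquitinase USP8 lower (-0.34). Of 17 adaptor and RAS-ERK relay genes 1 rose and 3 fell with HIF2a guides, with MAPK3, the gene of ERK1, at 0.33. With USP37 guides 4 rose and 4 fell, with MAPK3 at -0.58 and HRAS at 0.47. Several of these genes also differed between the controls. In USP37_sgscr relative to HIF2a_sgscr the log2 change was 0.87 for MAPK3, -0.57 for RHBDF2, -0.46 for ADAM12 and 0.49 for USP8. HRAS averaged 8.88 in USP37_sgscr and 9.35 in HIF2a_sgscr. The part of these gaps in the changes was not tested. Without the 3 far libraries the relay count with HIF2a guides was 0 higher and 2 lower.

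Among 15 tested genes induced by ERK or acting as its feedback, 9 rose and 3 fell with HIF2a guides, where 16.1% of all tested genes rose and 14.5% fell. Their median log2 change was 0.39, beside -0.0045 over all tested genes. Without the 3 far libraries 7 rose and 3 fell. The phosphatases DUSP5 (0.99) and DUSP6 (0.75) and the feedback inhibitor SPRY4 (1.13) rose, while EGR1, an immediate early transcription factor, fell by 1.82. With USP37 guides 9 of the 15 rose and 1 fell, where 22.4% of all tested genes rose and 21.9% fell. Their median was 0.58, beside 0.0060 over all tested genes, and without the far libraries 9 rose and 2 fell. FOSL1, an AP-1 subunit, rose by 1.23, DUSP5 and PHLDA1 by 1.15 each and DUSP6 by 1.03. EGR1 averaged 6.54 in HIF2a_sg4 and 6.42 in HIF2a_sg6, against 8.30 in HIF2a_sgscr, and 8.21 in USP37_sg3 and 7.90 in USP37_sg9, against 7.47 in USP37_sgscr. The 2 changes of EGR1 differed by 2.40 and those of FOSL1 by 1.71. The controls also differed for these genes, by -0.83 for EGR1, 0.59 for DUSP5 and -0.50 for FOSL1 in USP37_sgscr relative to HIF2a_sgscr.

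**Figure D4:**
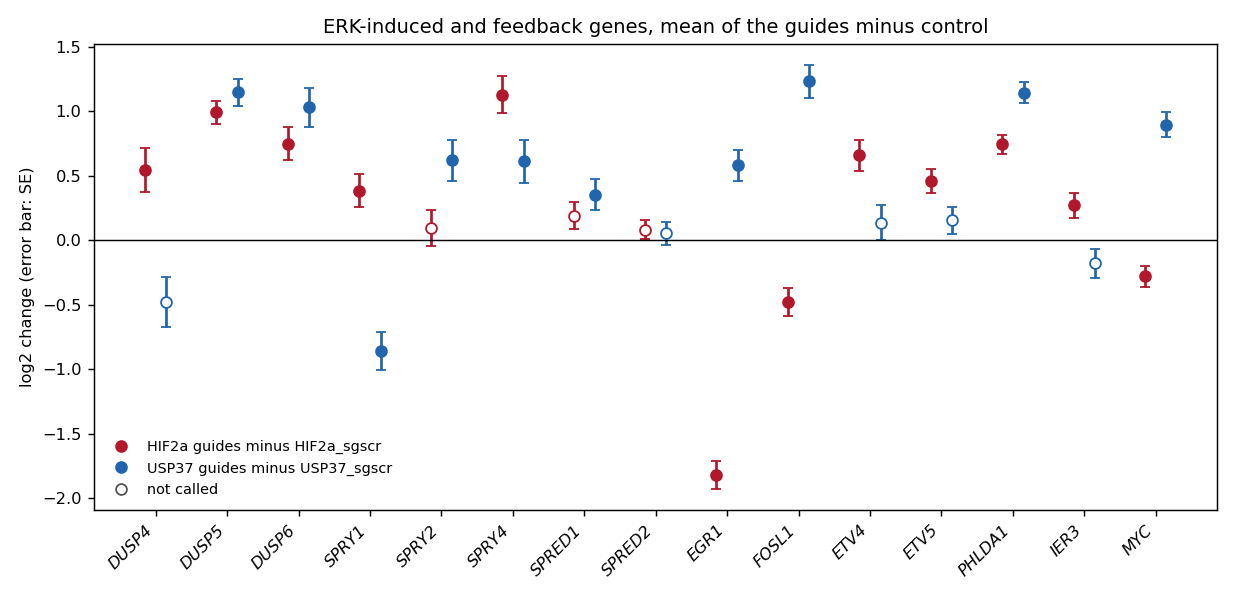
Log2 change of the 15 tested ERK-induced and feedback genes with HIF2a guides and with USP37 guides, each averaged over the 2 guides against its own control, points with SE. DUSP5 and DUSP6 lie above 0 in both experiments, and EGR1 lies far below 0 with HIF2a guides and above 0 with USP37 guides.

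Across the 6 group means, TGFA spanned 2.61, AREG 2.23, EREG 1.41 and ERRFI1 2.99 on the log2 scale, and the genes with the most similar centred profiles were listed for these members. The measure was the root mean square distance between centred group means, over 6 groups taken from the same 17 libraries for every gene, and carries no p. TGFA was nearest to ADM, with a distance of 0.129, then to MAP7D2 (0.152), PTCHD4 (0.175) and the targeted gene EPAS1 (0.251). EREG was nearest to HIVEP3 (0.147) and GPR1 (0.155), AREG to SLC16A3 (0.211) and DOK3 (0.246), and ERRFI1 to ITPR1 (0.206). HBEGF, EGFR and ERBB2 spanned under 1 and no neighbours were named.

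**Figure D5:**
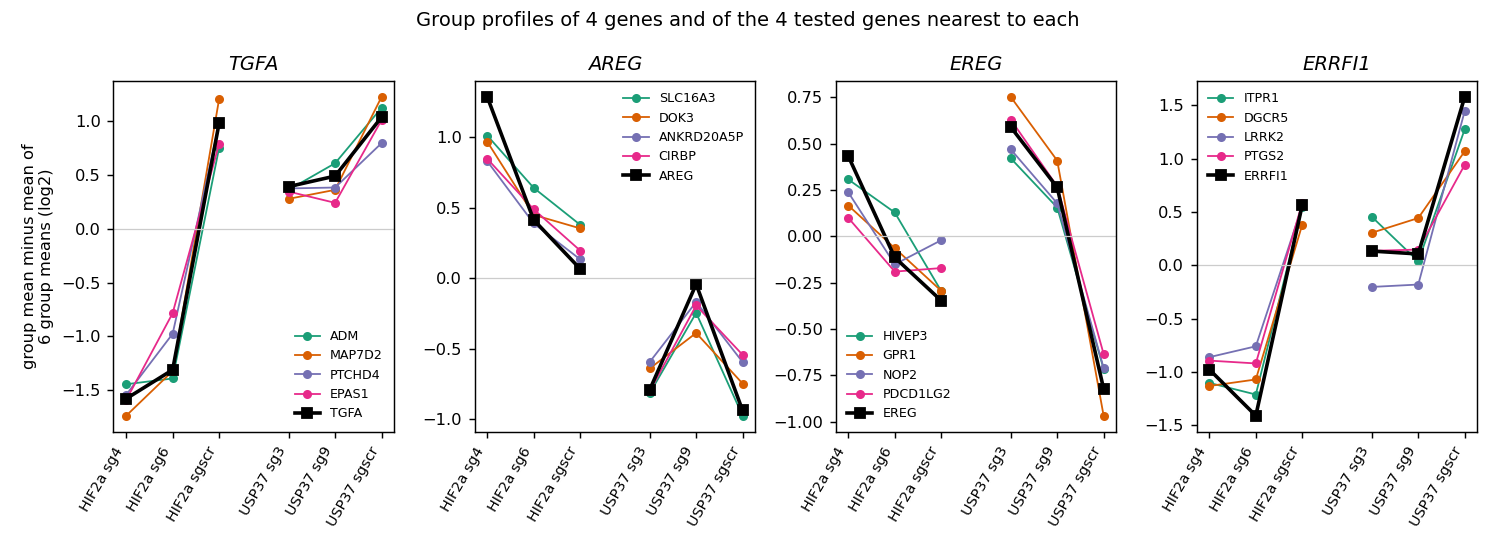
Centred group means (log2) of TGFA, AREG, EREG and ERRFI1 across the 6 groups, each with the genes whose profiles lay nearest. The TGFA profile is close to that of ADM, at a distance of 0.129, with both HIF2a guide groups at the bottom.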

How the data were processed

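Polyadenylated RNA of 17 libraries of 786-O cells was sequenced with the TruSeq v2 kit, per the labels' protocols. The authors deposited 1 table of variance-stabilised, batch-corrected values on a log2 scale for 27315 genes. Per the submitters' processing notes, DESeq2, Salmon, STAR 2.5.2b, cutadapt and hg19 were used, in roles and an order that are not stated. What defined a batch, and how it was corrected, is not given in the labels or notes used here. The gene means over libraries numbered 1, 2 and 3 agreed to within 6.4e-14, which shows that a replicate-number term had been removed. USP37_sgscr has no library 1. Equal means then imply that groups were not kept in that step, so part of a control difference can sit in libraries 1. Between same-numbered libraries the USP37 changes ran from -0.66 to -0.64 (TGFA), 1.28 to 1.43 (EREG), -1.61 to -1.50 (ERRFI1), 0.33 to 0.96 (AREG) and 0.83 to 1.17 (HBEGF). Those reported are -0.60, 1.25, -1.46, 0.52 and 0.93. The effect of this step was not tested.

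The values were taken as deposited. Genes with a mean at least 1 above the 1st percentile of gene means (5.14) were tested, 12484 in all. The 6 group means were fitted with limma 3.58.1 in R 4.3.3, with a mean-variance trend and 11 residual degrees of freedom, and called at an adjusted p under 0.05 (Benjamini-Hochberg). These degrees of freedom do not count the number term already removed. Guide effects were averaged over both guides and set against the experiment's own control, and the 2 effects were compared by an interaction contrast. The fit was first run on simulated data, where it recovered 70 of 100 log2 changes of 0.5 with HIF2a guides and 51 of 100 with USP37 guides. Of changes of 1 it recovered 99 and 98 of 100. In the simulation 100 of 12484 genes were changed by each size, whereas 30.6% and 44.3% of tested genes were called in the data. The adjustment depends on that share, so these rates need not hold for the tests reported. A true change of 0.5 or less can still have been missed.

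The members, the gene lists and the rule for named genes were chosen with earlier results of these data known. Named were the 8 members, EPAS1 and USP37, at most 4 called genes per list, by size of change, and the nearest profiles of members spanning over 1. Markers, and genes of a list that were not tested, were named from those lists, and CDH6 and SOX2 were singled out after their values were seen. Depth is unknown, so no counting interval is given.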

Additional observations from a re-analysis of the deposited data

Results flagged for a closer look

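For 4 members the log2 change with USP37 guides differed from that with HIF2a guides by the interaction contrast of limma (Benjamini-Hochberg adjustment). The difference was 1.83 for TGFA (adjusted p = 4.35e-09), whose change was -0.60 with USP37 guides and -2.42 with HIF2a guides. It was 0.74 for EREG (adjusted p = 0.000397), with changes of 1.25 and 0.51, and 0.69 for HBEGF (adjusted p = 0.00318), with changes of 0.93 and 0.25. It was -0.45 for ERBB2 (adjusted p = 0.0144), with changes of -0.25 and 0.20, neither of which passed the test alone. The controls of the 2 experiments differed for EREG by -0.48 (adjusted p = 0.00393), and their part in its difference was not tested.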

How the results depend on the processing

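Of the 43 member values called, 34 were called with the same sign under every alternative that tested them, among them TGFA, EREG and ERRFI1 in both experiments. Depth is unknown, so a weakly expressed member such as AREG, HBEGF or ERBB3 carries an error that cannot be stated per library. The stricter filter removed AREG and HBEGF, leaving 3 of 5 members called with USP37 guides. Array weights, whose estimation stopped before converging, gave 5150 genes called with HIF2a_sg4 (against 3159) and 573 between the HIF2a guides (against 1151). They also turned the EGFR difference between those guides to -0.052. Their lowest weight, 0.104, went to HIF2a_sg6 replicate 1, the library of that group kept when the 3 far ones are left out. Replicates 2 and 3 of HIF2a_sg6 had weights of 0.51 and 0.56, so the 2 alternatives disagree on the libraries of this group. Without the 3 far libraries 2021 genes were called with HIF2a_sg6 (against 3624) and 413 between the HIF2a guides, and EGFR was 0.13 over both guides, 0.0074 with HIF2a_sg4 and 0.25 with HIF2a_sg6. Pooled controls turned AREG with USP37 guides to -0.081, and quantile normalisation turned ERRFI1 between the USP37 guides to 0.011 and HBEGF between the controls to 0.0028. The cause was not tested.

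Leaving out 1 library at a time gave 500 to 1593 genes between the HIF2a guides, with the lowest counts without HIF2a_sg4 replicate 2 (500) and 3 (612). It gave 3683 to 5854 genes with USP37 guides (5525; lowest without USP37_sgscr replicate 2) and 3347 to 5404 between the controls (5051; lowest without USP37_sgscr replicate 3). The member values that changed sign, none of them called, ranged over -0.22 to 0.080 (EGFR) with HIF2a guides. They ranged over -0.22 to 0.0074 (EGFR) and -0.022 to 0.15 (ERBB2) with HIF2a_sg4, and over -0.33 to 0.27 (EGFR) and -0.080 to 0.059 (HBEGF) with HIF2a_sg6. Between the HIF2a guides EGFR ranged over -0.22 to 0.38. With USP37_sg3 AREG ranged over -0.11 to 0.40 and ERBB2 over -0.14 to 0.024, and between the USP37 guides ERRFI1 ranged over -0.11 to 0.082 and HBEGF over -0.18 to 0.015. The difference between experiments ranged over -0.28 to 0.021 (EGFR), and that between controls over -0.16 to 0.12 (HBEGF) and -0.021 to 0.11 (TGFA).

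Whether replicate numbers pair the libraries could not be told, because the deposited correction had removed a number term. Over 40 same-numbered pairs r ran from -0.55 to 0.22, and the 3 pairs of HIF2a_sg6 and HIF2a_sg4 had 0.107, 0.152 and 0.212. With a replicate block 3321 genes were called with HIF2a guides, 5069 with USP37 guides, 4282 between experiments, 4625 between controls and 832 between the HIF2a guides (against 1151). The block changed the call of no member in these comparisons, with 4, 5, 4, 3 and 4 members called.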
